A study of Mus musculus with 15 samples.

Results

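Barx1 was followed in mouse tissue at E10.5, in RNA from the maxillary and mandibular branches of arch 1, on every probe set of the array that carried its symbol. It was 1 gene of 18193 named by a probe set of their own, and it had 1 probe set, 1423342_at, of 45101 in the deposited table. The study had 15 arrays in 5 groups of 3. The groups were the mandibular branch of Dlx5/6 mutants (5_6_MNA in the labels), the maxillary branch of embryos labelled only KO (KO_MXA), the wild-type (WT) mandibular branch (WT_MNA), and a pair of WT maxillary groups, called set 2 (WT_MXA2) and set 1 (WT_MXA) here. The labels gave no strain, allele or name of the gene lost in the KO embryos. Their shared description, written as a plan, listed dlx2, dlx1/2 and Dlx5/6 mutants and foresaw pooled arches, and it did not say how the WT maxillary groups differed. Whether each array stood for its own embryo or for a pool was not given in the labels, and p values measured only the spread between these arrays, which may be technical.

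The first arch forms the jaws, its maxillary branch the upper and its mandibular branch the lower jaw. Barx1 encodes a homeodomain transcription factor of the Bar class. In mouse embryos it is known as a mark of the proximal mesenchyme of both branches, the molar field, and of the stomach mesenchyme. In mouse jaw explants FGF8 from the oral epithelium induces Barx1 and BMP4 represses it. The Dlx genes encode homeodomain factors in nested domains of the arch mesenchyme, Dlx1 and Dlx2 along the proximal and distal arch, Dlx5 and Dlx6 more distally.

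Barx1 lies on chromosome 13 of the mouse genome build GRCm38.p6, at 48663036 to 48666507 in the RefSeq gene table (gene ID 12022). The 250 bases before its RefSeq start, chr13:48662786-48663035 on the plus strand, are shown as the sequence next to the gene whose RNA was measured. They were taken from RefSeq and are written 5′ to 3′, with capitals for the letters GGGCGG, a GC box, on either strand.
Barx1: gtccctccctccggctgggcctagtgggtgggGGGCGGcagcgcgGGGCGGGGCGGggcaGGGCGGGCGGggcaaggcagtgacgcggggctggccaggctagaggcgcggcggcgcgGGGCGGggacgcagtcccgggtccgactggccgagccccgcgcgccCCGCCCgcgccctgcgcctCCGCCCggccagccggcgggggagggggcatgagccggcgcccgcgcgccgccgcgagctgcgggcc
The window was 85.6% G and C and held 40 CpG dinucleotides. Among the upstream windows of the same length before 32841 RefSeq starts, 0.107% had a G and C share at least as high. GGGCGG occurred 8 times, counting matches that overlap each other. Of all windows 32.7% held it at all, and how often it occurred in each of them was not compared. TAATTA, a core bound by many homeodomain proteins, was searched on both strands and occurred 0 times in these letters, while 4.84% of all windows held it. Its absence therefore sets this window apart in no way.

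Values below are the deposited signals, on a linear intensity scale that had been set to a common trimmed mean on every array. The median signal per array ran from 26.6 to 33.4. Barx1 lay above the 40th percentile of its array, a signal of 16.2 to 21.6, on 15 of 15 arrays. Differences are on the scale of log2(signal + 32) after quantile normalization, with the SE from limma, and adjusted p values are from limma over 31677 probe sets. The 6 arrays of the KO group and set 2 carried a higher signal of the bacterial dap spike-in, with means of 2564 to 2821, than the 9 arrays of the other groups, with 287 to 340. KO arrays were therefore set against set 2, and mandibular arrays against each other or set 1. Branch markers, which were named after their values were seen, followed the labels in WT arrays. The mandibular markers Hand2, Dlx5 and Dlx6 summed to 2594 to 2679 in WT mandibular arrays, against 131 to 188 in set 2 and 162 to 187 in set 1. In the Dlx5/6 mutant mandibular arrays they summed to 197 to 217, but Dlx5 and Dlx6 are the mutated genes, so that sum is no check of the branch. The maxillary markers Pou3f3, Foxl2 and Irx5 summed to 395 to 416 in WT mandibular arrays, against 1417 to 1719 in set 2 and 1629 to 1829 in set 1. Their sums were 1557 to 1683 in the Dlx5/6 mutant mandibular arrays and 986 to 1092 in the KO arrays.

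Barx1 was strongly reduced in the KO maxillary branch. Its signal was 91.0, 97.1 and 90.1 in the KO arrays, against 707, 686 and 745 in set 2. The mean was 92.7 ± 3.79 in KO arrays and 713 ± 29.8 in set 2 (SD, n = 3 each), an 87.0% or 7.69-fold lower signal. All KO arrays lay far below all WT arrays of either branch, and the KO arrays lay close together, as did those of set 2. The log2 change of Barx1 was -2.61 ± 0.09 (limma adjusted p = 4.47e-15; 95% interval -2.79 to -2.43). Of the probe sets tested, 0.912% were called at an adjusted p under 0.05, 0.464% higher and 0.448% lower. Among 86 genes called lower, Barx1 had rank 2 by size, after Dlx2. Against set 1, where the signal was 599, 630 and 671, the change was -2.43 ± 0.09 (limma adjusted p = 1.05e-14), with 5.46% of probe sets called lower. In bulk tissue fewer cells that express Barx1 and less Barx1 RNA per cell cannot be told apart.

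**Figure D1:**
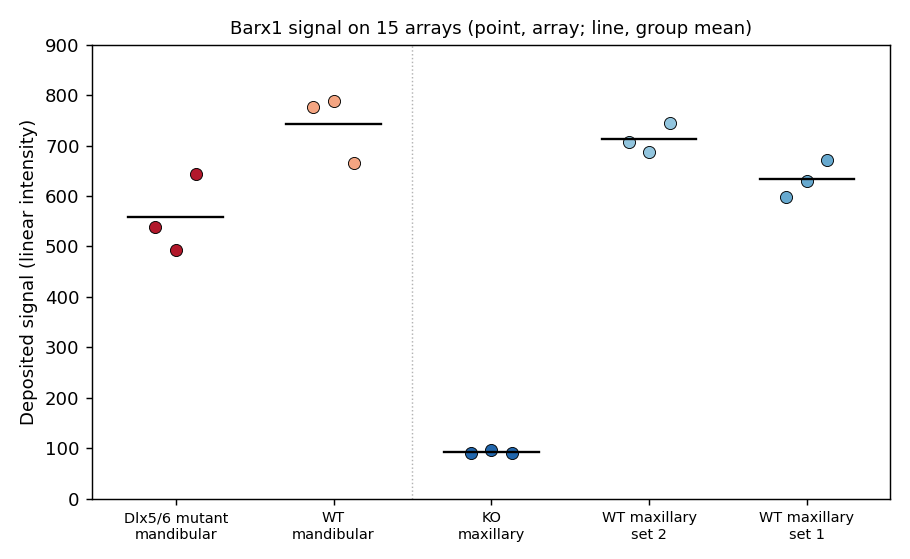
Deposited Barx1 signal (linear intensity) on each of the 15 arrays, with 3 points and a line at the mean per group. The KO maxillary arrays sit between 90.1 and 97.1, while the other 12 arrays sit between 493 and 788.

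Barx1 was kept at a reduced level in the mandibular branch of the Dlx5/6 mutant. Its signal was 539, 493 and 643 in the mutant arrays, against 777, 788 and 665 in WT mandibular arrays. The mutant mean of 558 ± 77.1 (SD, n = 3) was 75.1% of the WT mean of 743 ± 68.2 (SD, n = 3). The groups did not overlap, but the highest mutant array lay close to the lowest WT array. With 3 arrays per group a lack of overlap is weak support. The WT maxillary groups, between which Barx1 was not called, did not overlap either. The log2 change of Barx1 was -0.40 ± 0.09 (limma adjusted p = 0.0126; 95% interval -0.58 to -0.21). Of the probe sets tested 2.63% were called, 1.39% higher and 1.24% lower, and among the 218 genes called lower Barx1 had rank 161 by size. The call was not stable. It was lost when mutant replicate 1 (adjusted p = 0.0575), mutant replicate 2 (adjusted p = 0.11), WT replicate 1 (adjusted p = 0.0526) or WT replicate 2 (adjusted p = 0.077) was left out, and when the variance was fitted without an intensity trend (adjusted p = 0.0673). The change was negative in all 18 other settings run, these included, from -0.50 to -0.32.

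The loss of Barx1 in the KO maxillary branch was larger than in the Dlx5/6 mutant mandibular branch. The Dlx5/6 effect minus the KO effect was 2.21 ± 0.12 on the log2 scale (limma adjusted p = 7.51e-11; 95% interval 1.95 to 2.47), in a test where 1.1% of probe sets were called. Each effect was taken within its own array set, and the effects shared no arrays. The difference was called in all 24 other settings, at 1.60 to 2.46. With set 1 as the maxillary control it was 2.03, with 7.12% of probe sets called. The KO and Dlx5/6 arrays differ in branch as well as in mutation, so the effect of either mutation in the other branch was not measured.

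**Figure D2:**
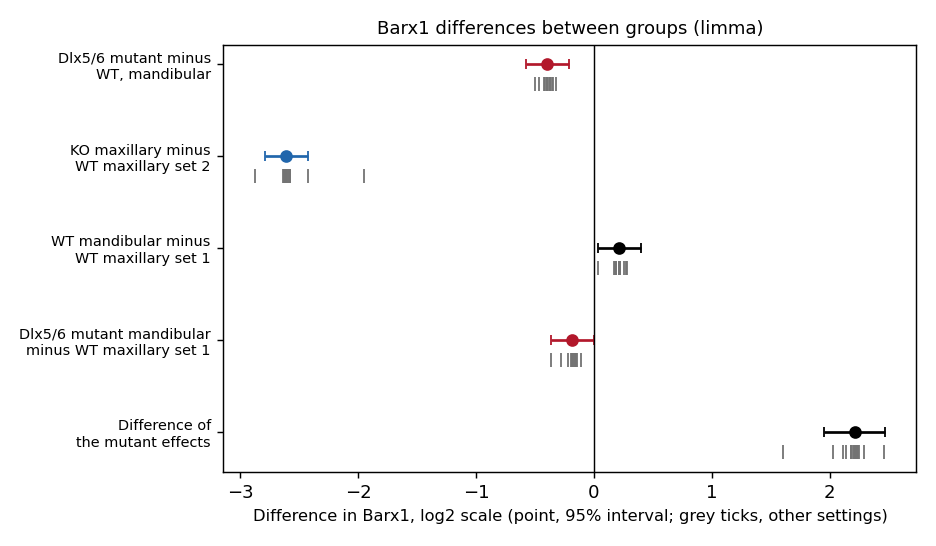
Differences in Barx1 on the log2 scale, with the limma estimate and its 95% interval (point and bar) and the values under all other settings (grey ticks). The KO effect lies at -2.61 and the Dlx5/6 effect at -0.40, and the wild-type branches differ by 0.21.

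Between wild-type branches no difference in Barx1 was called. WT mandibular arrays had 777, 788 and 665, against 599, 630 and 671 in set 1, and the groups overlapped. The difference was 0.21 ± 0.09 (limma adjusted p = 0.293; 95% interval 0.03 to 0.40), in a comparison with 2.63% of probe sets called. Against set 2 it was 0.03 (limma adjusted p = 0.879), with 10.4% of probe sets called. The mutant mandibular branch did not differ by a call from set 1 either (-0.18 ± 0.09, limma adjusted p = 0.583; 95% interval -0.37 to 0.00004), with 0.593% of probe sets called. It was called lower than set 2 (-0.36, limma adjusted p = 0.00842), but set 2 lies in the other array set, and 11.2% of probe sets were called there. The WT maxillary groups, set 2 against set 1, differed by 0.18 ± 0.09 (limma adjusted p = 0.245), although 8.4% of probe sets were called between them. The Barx1 signals of these groups did not overlap (686 to 745 in set 2 and 599 to 671 in set 1).

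By mean log2 level the order was WT mandibular (9.58), set 2 (9.55), set 1 (9.37), Dlx5/6 mutant mandibular (9.19) and KO maxillary (6.94). Of the 4 steps between neighbours only the last was called, at 2.25 ± 0.09 (limma adjusted p = 3.21e-14, with 12.5% of probe sets called in that step). The groups of that step differ in array set, branch and mutation at once. The order mixes groups of both array sets, and its steps were chosen from these same means. In all 25 other settings run the last step was again the only one called. The order itself was kept in 24 of them, and without WT mandibular replicate 2 the WT mandibular mean lay just below that of set 2 (-0.0065). The arrays of a group ran over 0.06 on the log2 scale in the KO group and 0.35 in the Dlx5/6 mutant group, which had the widest spread.

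The Dlx genes themselves moved differently in the mutants. In the KO maxillary branch Dlx2 had a signal of 3.21, 3.56 and 3.32, against 442, 421 and 402 in set 2 (log2 change -3.70 ± 0.10, limma adjusted p = 3.42e-17). The KO signals of Dlx2 were below the 40th percentile of each array, so adding 32 understates this fall. Dlx1 had 206, 199 and 222 in KO arrays, against 701, 688 and 746 in set 2 (log2 change -1.62 ± 0.07, limma adjusted p = 6.18e-13). Dlx5 also fell there, to a mean of 33.5 ± 5.98 in KO arrays, against 117 ± 24.6 in set 2 (-1.25 ± 0.12, limma adjusted p = 1.35e-06). Dlx3 (-0.12), Dlx4 (0.01) and Dlx6 (-0.43) were not called. So 3 of 6 Dlx genes fell and 0 rose, where 1.25% of all genes were called.

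In the Dlx5/6 mutant mandibular branch Dlx1 had 776, 842 and 823, against 481, 490 and 476 in WT mandibular arrays (rise of 0.72 ± 0.07, limma adjusted p = 4.22e-07). All mutant arrays were above all WT arrays. Dlx2 had 347, 310 and 373, against 320, 254 and 269 (0.28 ± 0.10, limma adjusted p = 0.152), and the groups overlapped at 310 and 320. Dlx5 fell by 4.12 ± 0.12, Dlx6 by 2.96 ± 0.18, Dlx3 by 1.37 ± 0.15 and Dlx4 by 1.03 ± 0.16. Thus 4 of 6 Dlx genes fell and 1 rose, where 3.12% of all genes were called. No source used here placed the probes against the deleted sequence, so Dlx5 and Dlx6 are no full check of the mutation. The KO labels name no gene to set Dlx2 against.

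**Figure D3:**
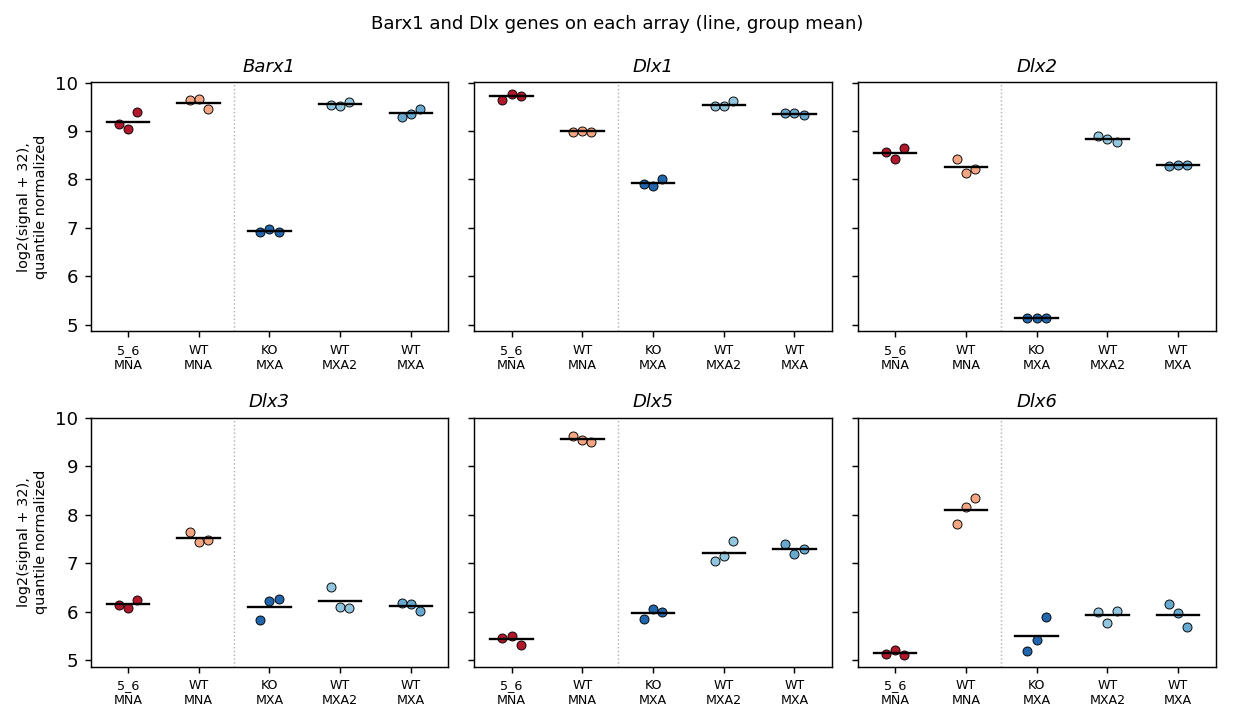
Quantile-normalized log2(signal + 32) of Barx1 and 5 Dlx genes on each array, with a line at the group mean; levels are to be read within a panel, not between genes. Barx1, Dlx1 and Dlx2 are lowest in the KO maxillary arrays, and Dlx5, Dlx6 and Dlx3 are highest in WT mandibular arrays.

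Signals that act on Barx1 in mouse jaw explants were not called changed with it. Fgf8, the inducer, had a mean signal of 141 ± 15.1 in KO and 116 ± 9.41 in set 2 arrays (0.21, limma adjusted p = 0.546), and 108 ± 4.11 in Dlx5/6 mutant and 97.5 ± 11.4 in WT mandibular arrays (0.14, limma adjusted p = 0.675). Bmp4, the repressor, had 314 ± 18.1 in KO and 256 ± 29.7 in set 2 arrays (0.27, limma adjusted p = 0.287), and 288 ± 21.5 in Dlx5/6 mutant and 255 ± 38.9 in WT mandibular arrays (0.17, limma adjusted p = 0.498). These tests do not show that either gene was equal between groups.

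Of 13 genes of the FGF pathway, 0 were called by limma in the KO comparison (median 0.15), where 1.25% of all genes were called, so a count of 0 sets this list apart in no way. The Dlx5/6 comparison, with 3.12% of all genes called, had 2 of 13 called, both higher (median 0.07). They were the feedback inhibitors Dusp6 (0.50 ± 0.06, limma adjusted p = 1.64e-05) and Spry2 (0.39 ± 0.09, limma adjusted p = 0.0199). Of 12 BMP pathway genes tested, 1 rose and 1 fell in the KO arrays (median 0.04; 1.25% of all genes called), the BMP target Id3 (0.27, adjusted p = 0.0127) and the homeobox gene Msx2 (-0.36, adjusted p just inside the threshold). Among Dlx5/6 mutant arrays 0 rose and 2 fell (median 0.01; 3.12% of all genes called), the BMP pseudoreceptor gene Bambi (-0.78 ± 0.08) and Msx1 (-0.57 ± 0.13). The median over all genes was -0.0011 in the KO and -0.0074 in the Dlx5/6 comparison. In the Dlx5/6 comparison the other Msx1 probe set was also called lower (-0.50, limma adjusted p = 0.00366). The other Spry2 probe set was not called there (0.01, limma adjusted p = 0.989). On the brightest probe sets, leaving out replicate 1 or 2 of the mutant, or replicate 1 or 3 of the WT, ended the calls of Spry2 (adjusted p up to 0.126) and Msx1 (up to 0.112). That of Id3 was lost without KO replicate 2 or 3 or set 2 replicate 1 or 2 (up to 0.0949), and that of Msx2 without any 1 of the 6 arrays (up to 0.213).

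Of 10 mesenchyme genes of the proximal, molar-forming domain, 3 fell and 0 rose in the KO maxillary branch (median -0.22; 1.25% of all genes called). They were Dlx1 and Dlx2, already described among the Dlx genes, and Lhx6, a LIM homeobox gene of oral mesenchyme, so Lhx6 was the only called member outside the Dlx family. Lhx6 had a mean of 151 ± 2.65 in KO arrays, against 452 ± 42.2 in set 2 (-1.42 ± 0.09, limma adjusted p = 7.07e-10). Its relative Lhx8 was not called (1466 ± 63.6 in KO and 1686 ± 115 in set 2 arrays; -0.17, limma adjusted p = 0.372), nor were Pax9 (0.52), Pitx1 (0.22), Gli2 (-0.02) and Gli3 (-0.20).

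The same list was split in the Dlx5/6 mutant, with 3 genes higher and 2 lower (median 0.20; 3.12% of all genes called). Lhx6 (1.05 ± 0.09, limma adjusted p = 3.79e-08), Lhx8 (0.60 ± 0.07) and Dlx1 rose while Barx1 fell. Pitx1, a homeobox gene of the lower jaw, fell by 1.85 ± 0.14, and the zinc finger gene Osr2 by 0.78 ± 0.19 (limma adjusted p = 0.0254). The call of Osr2 was lost without any 1 of 5 of the 6 arrays, all but mutant replicate 2 (adjusted p up to 0.161).

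Of 7 tested genes of the distal, incisor-forming domain, Alx1 rose (0.37 ± 0.08, limma adjusted p = 0.0218) and Msx2 fell in the KO arrays (median -0.04). In that comparison 1.25% of all genes were called. The other Alx1 probe set was not called there (0.39, limma adjusted p = 0.234). Without KO replicate 1 or 3 or set 2 replicate 1 or 2 the call of Alx1 was lost (adjusted p up to 0.109). In the Dlx5/6 mutant Hand2 (-2.90 ± 0.13), Hand1 (-1.09 ± 0.16) and Msx1 fell, and Alx1 rose (0.99 ± 0.08). The list median was -0.29, and 3.12% of all genes were called. The other Alx1 probe set was just short of a call (0.49, limma adjusted p = 0.0501). Alx1 encodes a homeodomain factor of the frontonasal and maxillary mesenchyme.

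**Figure D4:**
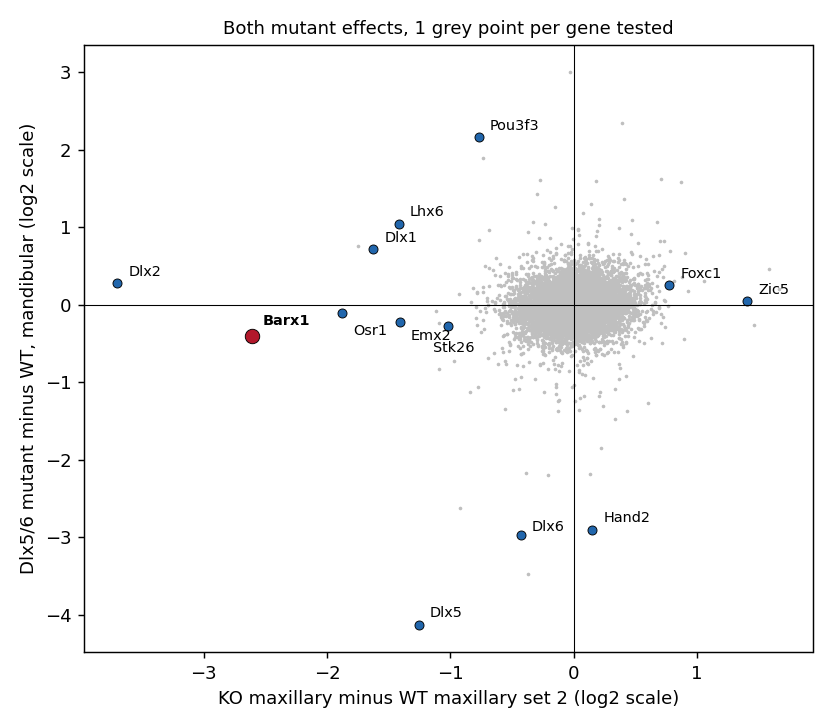
Log2 change in the Dlx5/6 mutant mandibular branch (vertical) against that in the KO maxillary branch (horizontal), 1 point per gene tested, with Barx1 in red and named genes in blue. Barx1 lies at -2.61 and -0.40, below Dlx1, Dlx2 and Lhx6, which lie at 0.72, 0.28 and 1.05 on the vertical axis.

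Genes tied to Barx1 in other mouse tissues were also measured. The WNT inhibitors Sfrp1 (-0.05) and Sfrp2 (-0.15), which Barx1 promotes in the stomach mesenchyme, the joint gene Gdf5 (-0.32) and the cartilage collagen gene Col2a1 (0.01) were not called in the KO comparison. Of 6 such genes tested, 0 were called (median -0.10), and with 1.25% of all genes called this count says nothing particular of them. In the Dlx5/6 mutant Sfrp2 rose by 1.26 ± 0.07 (limma adjusted p = 6.87e-11), to 977 ± 44.4 in mutant arrays, against 394 ± 40.5 in WT mandibular arrays. The other 5 were not called on their brightest probe set (median 0.13, with 3.12% of all genes called). Sfrp1 was not called on that probe set (0.24, limma adjusted p = 0.426), but 3 of its other 4 probe sets were called higher (0.60, 0.41 and 0.32; limma adjusted p = 0.00444, 0.0452 and 0.0489). The other Bar-class genes Barx2, Barhl1 and Barhl2 lay below the filter on dim probe sets and were not tested.

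The nearest RefSeq genes were also set beside Barx1. Of 3 on each side, Ptpdc1 and Phf2, the flanking protein-coding genes, were measured. In the KO comparison Ptpdc1 changed by 0.29 ± 0.15 (limma adjusted p = 0.516) and Phf2 by 0.06 ± 0.11 (limma adjusted p = 0.91). For the Dlx5/6 mutant the values were 0.05 ± 0.15 and 0.11 ± 0.11, neither called.

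Markers of the tissue and of other cells were also measured in the KO comparison, where 1.25% of all genes were called. At that share a count of 0 sets a list apart in no way. The 8 arch mesenchyme markers summed to a signal of 7463 to 7896 in KO arrays, against 8202 to 8624 in set 2. Of these Prrx1 (-0.28 ± 0.06, limma adjusted p = 0.0251) and Snai2 (-0.59 ± 0.14, limma adjusted p = 0.036) fell and Tfap2a rose (0.62 ± 0.09) on their brightest probe set. None of the other 5 Prrx1 probe sets was called (limma adjusted p = 0.322 to 0.986). The other Snai2 probe set was also called lower (-0.36, limma adjusted p = 0.00307). On the brightest probe sets Prrx1 lost its call without KO replicate 1 or 3 or set 2 replicate 1 or 3 (adjusted p up to 0.132), and Snai2 without any array but KO replicate 2 (up to 0.219). The 12 sensory neuron and glia markers summed to 1144 to 1167 in KO arrays, 1408 to 1513 in set 2 and 3235 to 3482 in set 1, with 3 of 12 called lower against set 2 (Nefm, Nefl and Neurog1). The 10 macrophage markers summed to 864 to 893 in KO arrays, against 587 to 627 in set 2, with 2 of 10 called higher (Csf1r and Mrc1). The other 2 Csf1r probe sets were not called (0.54 and 0.05; limma adjusted p = 0.14 and 0.954). The 7 endothelium markers had 1076 to 1251 in KO arrays, against 833 to 908 in set 2, with 1 called higher (Emcn). The muscle and mesoderm list summed to 289 to 309 in KO arrays, against 179 to 214 in set 2, with 1 of 6 called higher (Lhx2). The epithelium markers summed to 2170 to 2276 in KO arrays, against 1880 to 1987 in set 2, with 0 of 9 called on the brightest probe set, although another probe set of Krt8 was called higher (0.43, limma adjusted p = 0.0231). The erythroid markers summed to 27739 to 28713 in KO arrays, against 24842 to 27632 in set 2, with 0 of 6 called. Calls of Mrc1 were lost without any 1 array (adjusted p up to 0.0905), of Nefl without KO replicate 1 or 2 or set 2 replicate 2 (up to 0.0945), of Neurog1 without KO replicate 2 or 3 or set 2 replicate 1 or 3 (up to 0.2), and of Emcn without KO replicate 2 or 3 or set 2 replicate 3 (up to 0.0678). The part of these shifts in the fall of Barx1 was not tested.

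In the Dlx5/6 mutant mandibular branch the arch mesenchyme markers summed to 8064 to 8583, against 6841 to 7335 in WT mandibular arrays. Of 8 markers 3 rose, Prrx2 (0.50), Twist1 (0.45) and Snai1 (0.56), and 0 fell on the brightest probe sets. Prrx1 was not called on that probe set (0.19), but 2 of its other 5 were called higher (0.92 and 0.38; limma adjusted p = 3.75e-05 and 0.0175). The call of Snai1 was lost without mutant replicate 3 (adjusted p = 0.0505). The macrophage markers summed to 593 to 616 in mutant arrays, against 356 to 403 in WT mandibular arrays, with Csf1r called (0.59). The other 2 Csf1r probe sets were not called (0.51 and 0.18; limma adjusted p = 0.11 and 0.719). The sensory neuron markers summed to 650 to 723 in mutant arrays, against 587 to 636, and 2 of 12 were called higher, Neurod1 and Sst. Both calls ended when replicate 1 or 2 of either group was left out, and that of Sst also without WT replicate 3 (adjusted p up to 0.0768 for Neurod1 and 0.236 for Sst). The muscle list had 1 of 6 called lower, Myf5 (-0.92), with sums of 192 to 248 in mutant and 347 to 353 in WT mandibular arrays. No epithelium, endothelium or erythroid marker was called. In this comparison 3.12% of all genes were called, so the absence of calls sets those lists apart in no way. The part of the marker shifts in the Barx1 change was not tested. No tested marker was at 0 in any group.

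The genes most like Barx1 were ranked by Pearson's r over the 15 arrays, after the mean of each array set was taken off, among 255 genes whose group means spanned at least 1 on the log2 scale. The arrays of a group share their tissue, and the KO group sets most of each r, so these values are a description. A change in the KO arrays largely follows from picking genes in this way. The KO values and adjusted p values given below for the genes ranked highest or lowest are therefore a description too. Dlx2 came first (r = 0.970), followed by Osr1 (0.947), a zinc finger gene of early mesenchyme, the homeobox gene Emx2 (0.920), the alpha-fetoprotein gene Afp (0.877) and the kinase gene Stk26 (0.875).

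Osr1 had 24.3, 18.7 and 29.6 in KO arrays, against 144, 167 and 181 in set 2 (-1.88 ± 0.12, limma adjusted p = 2.0e-09). In the mandibular branch its groups overlapped, at 171, 212 and 185 in Dlx5/6 mutant and 193, 222 and 212 in WT arrays (-0.10, limma adjusted p = 0.822). Emx2 had 27.3, 37.7 and 24.8 in KO arrays, against 149, 130 and 95.6 in set 2 (-1.41 ± 0.15, limma adjusted p = 6.5e-06), and was not called in the Dlx5/6 mutant (-0.22). Both genes were lower on every KO array than on every array of set 2. Stk26 fell by 1.02 ± 0.06 in KO arrays, to 631 ± 27.4 against 1342 ± 41.1 in set 2. It also fell in the Dlx5/6 mutant (-0.28 ± 0.06, limma adjusted p = 0.00952), a call lost without WT replicate 2 or 3 (adjusted p = 0.0686 and 0.0518). Afp differed from the others, since its signal was 71.5 to 98.0 in KO arrays and 158 to 191 in set 2 but 12.3 to 32.1 on the other 9 arrays, and its r was -0.259 when array set means were kept.

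The lowest correlations belonged to Zic5 (-0.933), the forkhead gene Foxc1 (-0.925) and Zic2 (-0.891). Zic2 and Zic5 encode zinc finger factors of the neural plate and dorsal head. Foxc1 had 550, 488 and 570 in KO arrays, against 320, 291 and 295 in set 2, a rise of 0.78 ± 0.09 (limma adjusted p = 2.57e-05). Zic5 had 100.2, 109 and 118 in KO arrays, against 18.2, 29.5 and 15.3 in set 2, and Zic2 had 56.3, 56.5 and 41.5 in KO arrays, against 1.96, 16.0 and 4.36 in set 2. Both were called higher (limma adjusted p = 2.3e-05 and 0.00335). All set 2 signals of Zic2 and the Zic5 signal of 15.3 lay below the 40th percentile of their array. The Zic5 signal of 18.2 lay just above it (17.9), so the size of these rises is not given. None of these was called in the Dlx5/6 mutant. Over the 12 arrays without the KO group the r of Dlx2 with Barx1 was -0.436, that of Osr1 0.142, of Emx2 0.492 and of Foxc1 -0.551.

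**Figure D5:**
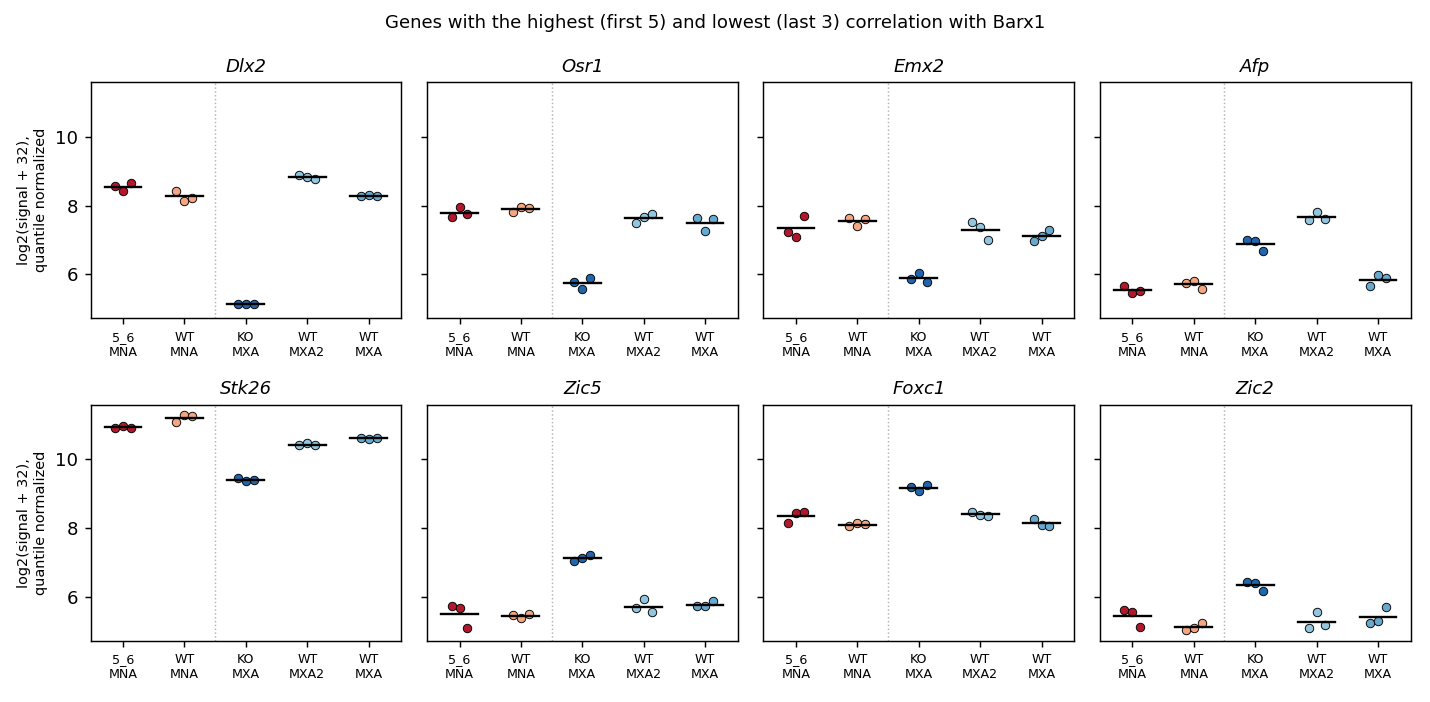
Quantile-normalized log2(signal + 32) on each array of the 5 genes with the highest and the 3 with the lowest correlation with Barx1 (r of 0.875 to 0.970 and -0.933 to -0.891), with a line at each group mean. Dlx2, Osr1, Emx2 and Stk26 are lowest and Zic5, Foxc1 and Zic2 highest in the KO maxillary arrays, whereas Afp is higher in KO and set 2 arrays than in the other groups.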

How the data were processed

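The authors deposited 1 linear intensity value for each Affymetrix probe set and array, and all columns were mapped to a sample. How they summarised probes and corrected the background is not given in the sources used here. On every array the mean without the lowest and highest 2% was 150.0, so the arrays had been scaled before deposition. Values were turned into log2(value + 32) and quantile normalized, because array medians ranged over 0.159. Of 45101 probe sets 64 controls were left out, and 31677 with 3 or more arrays above that array's 40th percentile were tested. The platform's probe table named genes, and 13945 genes were represented by their brightest probe set.

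All 15 arrays entered 1 limma fit (limma 3.58.1, R 4.3.3) with a mean per group, an intensity trend and 10 residual degrees of freedom. Calls were made at a Benjamini-Hochberg adjusted p under 0.05, and the number of arrays limits the precision. The procedure was tested on simulated data. Named genes were Barx1, the Dlx genes, the Bar-class genes, up to 4 called members per list, the nearest genes and the 8 ranked by correlation. Fgf8, Bmp4, Pax9, Gli2, Gli3, Sfrp1, Gdf5 and Col2a1, uncalled list members, were named outside that rule after their values were seen, as were the branch markers. The members, lists and the choice of set 2 as control were made with earlier results of these data known. Arrays with the same replicate number had residual correlations of -0.10 to 0.08 (30 pairs of arrays), and were therefore not treated as paired.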

Additional observations from a re-analysis of the deposited data

Results flagged for a closer look

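The effect of the Dlx5/6 mutation in the mandibular branch and that of the KO in the maxillary branch differed for Barx1 by a test of the difference itself, at 2.21 ± 0.12 on the log2 scale (limma adjusted p = 7.51e-11), the changes being -0.40 for Dlx5/6 and -2.61 for the KO. The same test passed for Dlx1 (2.35), Dlx2 (3.98), Dlx3 (-1.24), Dlx4 (-1.04), Dlx5 (-2.87) and Dlx6 (-2.54). In the wild-type maxillary control, mean signals were only 43.7 for Dlx3, 26.6 for Dlx4, 117 for Dlx5 and 29.2 for Dlx6. In wild-type mandibular arrays they were 154, 44.0, 727 and 250. Such low maxillary levels limit how far these genes could fall in the KO arrays. For Dlx3 to Dlx6 the test therefore cannot separate a weaker KO effect from a lower starting level. Lhx6 (2.46) and Pou3f3 (2.93) were tested because, like Dlx1, they were called higher in the Dlx5/6 mutant and lower in the KO arrays. For genes picked in that way the test was bound to pass, so it adds nothing for them. All values are the Dlx5/6 effect minus the KO effect, and branch and mutation cannot be told apart in them.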

How the results depend on the processing

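Barx1 kept the direction and side of the threshold in every setting run for the KO effect (19 settings, -2.88 to -1.95), the difference of the mutant effects (24, 1.60 to 2.46), the WT branches (19, 0.03 to 0.28) and set 2 against set 1 (0.15 to 0.22). The order of levels was kept in 24 of 25 settings, and WT mandibular and set 2 changed places without WT_MNA replicate 2 (-0.0065). The Dlx5/6 effect stayed negative but lost its call without a variance trend (-0.40, adjusted p = 0.0673), at the threshold of 0.01 (-0.40, adjusted p = 0.0126) and without 4 of the 6 arrays, with single-array values of -0.50 to -0.32. The replicate block gave -0.40 for it (adjusted p = 0.0191), -2.61 for the KO effect and changed no other Barx1 call. The Dlx5/6 mutant against the maxillary WT was called only with set 2 (-0.36, adjusted p = 0.00842). Counts of called probe sets were lower without a variance trend, at 450 (Dlx5/6 effect, 833 as reported), 172 (KO effect, 289), 218 (difference of effects, 347), 125 (Dlx5/6 mutant against set 1, 188) and 1624 (set 2 against set 1, 2662). At the threshold of 0.01 they were 397, 152, 194, 106 and 1248 in the same order, and 530 between the WT branches (834). Leaving out 1 array gave 499 to 655 for the Dlx5/6 effect, 180 to 223 for the KO effect and 121 to 143 for the Dlx5/6 mutant against set 1. These fits have fewer arrays or a stricter rule, and for the trend the cause was not tested. Fits on the arrays of 1 array set alone and the correlation ranking without KO arrays were added after seeing the data. Of the values for lists and other named genes, 2306 stayed on their side, 110 lost and 9 gained a call, 122 counts of called members moved by over 1.5 times, and none reversed. The genes most like Barx1 included 4 of the same 5 when array set means were kept and 0 of them without the KO arrays. Of 50 list genes with several probe sets, these were called differently within a gene for 8 in the Dlx5/6 effect (Alx1, Csf1r, Neurod1, Pax9, Pou3f3, Prrx1, Sfrp1, Spry2) and 7 in the KO effect (Alx1, Csf1r, Krt8, Nefl, Pou3f3, Prrx1, Tfap2a). Low signals limit Dlx2, Dlx4 and Dlx6 in KO arrays, Dlx4, Dlx5 and Dlx6 in the Dlx5/6 mutant, and Zic2 and Zic5 in set 2.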
